A study of Homo sapiens with 12 samples.

Results

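The G1 cyclins CCND1, CCND2, CCND3, CCNE1 and CCNE2, the kinases CDK2, CDK4 and CDK6 that they activate, the retinoblastoma gene RB1 and the transcription factor gene E2F1 were followed in 4 human ALCL lines. ALCL, anaplastic large cell lymphoma, is a tumour of T cells. The 10 genes were chosen by symbol in the annotation of the array platform, and all 10 were measured, each by 1 probe set, among 18417 named genes. The lines SUDHL-1, DEL, Karpas299 and SUPM2 were each sorted into a side population (SP), whose membrane pumps expel the DNA-binding dye Hoechst, and a main population (MP), which keeps it. SP and MP cells alike came from cultures in log-phase growth in RPMI medium with fetal calf serum and antibiotics, and both were stained with the dye before sorting. SUDHL-1 gave 3 SP and 3 MP arrays. DEL, Karpas299 and SUPM2 gave 1 SP and 1 MP array each, so SP against MP has no replicate within those lines. No engineered allele or drug is named for any group, and each established line stands for 1 tumour.

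The G1 cyclins bring a cell from the first gap phase into DNA synthesis. Cyclins D1, D2 and D3 activate CDK4 and CDK6, and the E cyclins activate CDK2. Both kinds of kinase phosphorylate the retinoblastoma protein, which then releases E2F factors to transcribe the genes of DNA synthesis, the E cyclins and E2F1 itself among them. T cells are known to depend on cyclin D2, cyclin D3 and CDK6 when they start to divide. In a sorted bulk sample, fewer cells of a cell cycle phase and less RNA per cell cannot be told apart.

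Of the members that differed between the lines, E2F1, CCNE1 and CDK4 were picked for display, with a different motif marked in each. CDK6 also differed and had a start at the 5 prime end of the gene, but is not shown. The stretches of genome just before the start sites of the 3 picked genes are given. Each is the run of 250 bases before the start on the gene's strand in RefSeq's GRCh38.p14, at chr20:33686386-33686635 (minus strand) for E2F1, chr19:29811741-29811990 (plus strand) for CCNE1 and chr12:57752311-57752560 (minus strand) for CDK4. Capitals mark E2F sites in E2F1, SP1 boxes in CCNE1 and E-boxes in CDK4.
E2F1: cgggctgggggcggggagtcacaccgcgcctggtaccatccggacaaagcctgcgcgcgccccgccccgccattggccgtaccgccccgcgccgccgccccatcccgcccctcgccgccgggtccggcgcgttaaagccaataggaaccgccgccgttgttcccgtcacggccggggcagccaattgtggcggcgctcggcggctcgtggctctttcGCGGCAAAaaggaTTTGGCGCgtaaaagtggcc
CCNE1: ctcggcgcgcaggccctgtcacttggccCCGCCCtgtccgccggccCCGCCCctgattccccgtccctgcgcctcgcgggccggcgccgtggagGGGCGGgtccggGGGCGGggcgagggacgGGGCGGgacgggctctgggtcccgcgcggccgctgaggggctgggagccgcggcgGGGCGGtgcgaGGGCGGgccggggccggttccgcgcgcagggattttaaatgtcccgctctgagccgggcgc
CDK4: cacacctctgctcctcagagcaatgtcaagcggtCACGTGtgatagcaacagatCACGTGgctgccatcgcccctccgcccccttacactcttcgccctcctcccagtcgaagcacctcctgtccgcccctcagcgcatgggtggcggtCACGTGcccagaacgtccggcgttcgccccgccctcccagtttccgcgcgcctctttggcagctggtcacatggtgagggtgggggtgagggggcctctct

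The E2F1 window held 2 E2F sites, searched on both strands as TTTCCCGC, TTTCGCGC, TTTGCCGC or TTTGGCGC, a pattern found in 2.79% of 35116 such windows of all genes. The CCNE1 window held 7 SP1 boxes (GGGCGG, present in 42.6% of windows) and none of the 4 spelled E2F sites. The CDK4 window held 3 E-boxes (CACGTG, present in 6.34% of windows), the motif that MYC and related factors bind. RefSeq windows were also listed for CCND3 (3 starts), CDK6 (2 starts) and RB1 (1 start), and none of these held an E2F site or an E-box. All of these starts but 1 of CDK6 lay inside the gene, so no window at the 5 prime end of CCND3 or RB1 was searched. Windows for CCND1, CCND2, CCNE2 and CDK2 were not used here. Of the 25 genes of a list of E2F targets in DNA synthesis that had a window, 13 (52.0%) held an E2F site, against 3.40% of the 27305 genes with a window. A match of letters is a description of the sequence, not evidence that a factor sits there.

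The deposited values were log2 signals per probe set, with no read depth behind them, and the number of arrays limits their precision. The series speaks of triplicate sorting without naming separate cultures, so p-values rest on a spread between samples that could be technical only. Medians over the named genes were 5.25 to 5.37 on the SUDHL-1 arrays and 5.76 to 5.80 on the other arrays. Levels of SUDHL-1 and of the other lines therefore lie on scales that may differ. SUDHL-1 as a line cannot be told apart from any difference in how its arrays were processed. SP and MP arrays of 1 line correlated over genes at 0.963 in SUPM2, 0.979 in Karpas299, 0.982 in DEL and 0.965 to 0.986 in SUDHL-1. Of 10 listed markers of this lymphoma and of activated T cells, 9 were measured, ALK not among them. Their mean signal was 7.82 to 8.22 on the SUDHL-1 arrays and 8.53 to 10.25 on the other arrays. Among them, IL2RA stood at 10.91 or more, GZMB at 9.64 or more and PRF1 at 8.54 or more on every array. TNFRSF8, the CD30 antigen, ran from 6.80 to 10.51. BATF3, CD4, TMOD1, CD5 and CD7 are given in the mean only. The SUDHL-1 means lay below the lowest values of IL2RA, GZMB and PRF1. Other markers of the list were therefore dimmer there, and these 3 genes do not stand for the list. Of 5 measured genes of the T-cell receptor complex, 2 (CD3G and TRAT1) lay below the 25th percentile of signals on every array, and so did 1 of 5 B-cell markers (MS4A1) and 2 of 5 myeloid markers (LYZ and MPO). In DEL, Karpas299 and SUPM2 the mean signal was 4.14 to 5.84 over the T-cell receptor genes, 4.33 to 5.04 over the B-cell markers and 4.62 to 5.48 over the myeloid markers. The myeloid gene CSF1R stood at 7.45 to 8.59 in these 3 lines against 4.90 to 5.55 in SUDHL-1.

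Among the D cyclins, CCND3 was the one whose signal was both bright and different between lines. Its signal on the log2 scale was 10.57 on the SP and 10.61 on the MP array of Karpas299, 9.85 and 9.99 in DEL, and 9.41 and 8.76 in SUPM2. In SUDHL-1 it was 8.01, 8.09 and 8.27 on the SP arrays and 8.43, 8.38 and 8.31 on the MP arrays. Both Karpas299 arrays lay above all others, as for 6.66% of all genes. All 6 SUDHL-1 arrays lay below all others, as for 29.1% of all genes. For differences between lines, limma took cell line and population as terms on all 12 arrays. The SP and MP arrays of a line stood for that line, so these p-values do not measure spread between its cultures. CCND3 was higher in Karpas299 than in SUPM2 by 1.51 on the log2 scale (SE 0.23, limma adjusted p = 0.00172), a 2.84-fold difference. It was higher in DEL than in SUPM2 by 0.84 (SE 0.23, limma adjusted p = 0.0458), a call that 11 of 14 alternatives lost (adjusted p up to 0.151). Karpas299 and DEL, neighbours in this order, were not separated (difference of DEL from Karpas299 -0.67, 95% confidence interval -1.17 to -0.17, limma adjusted p = 0.143).

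CCND1 and CCND2 showed much narrower ranges. CCND2, the D cyclin of resting and activated lymphocytes, was dim throughout, at 3.56 to 4.60, in the 18.5th to 28.3rd percentile of signals on the 12 arrays. CCND1, which is normally silent in lymphocytes, lay at 5.56 to 6.27, between the 50.8th and 58.8th percentile. The line means of CCND1 spanned 0.56 and those of CCND2 0.70 on the log2 scale, against 2.34 for CCND3. None of the contrasts among DEL, Karpas299 and SUPM2 was called for CCND1 or CCND2 in limma. The widest of them was CCND1 in DEL minus SUPM2, at -0.34 (95% confidence interval -0.69 to 0.0053, adjusted p = 0.238). Both genes stood lower in SUDHL-1 than in the mean of the other lines as deposited (-0.40 and -0.59), but the median of all genes in that contrast was itself -0.33. After quantile normalization the CCND1 difference was 0.03 and that of CCND2 -0.12, and neither was called.

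**Figure D1:**
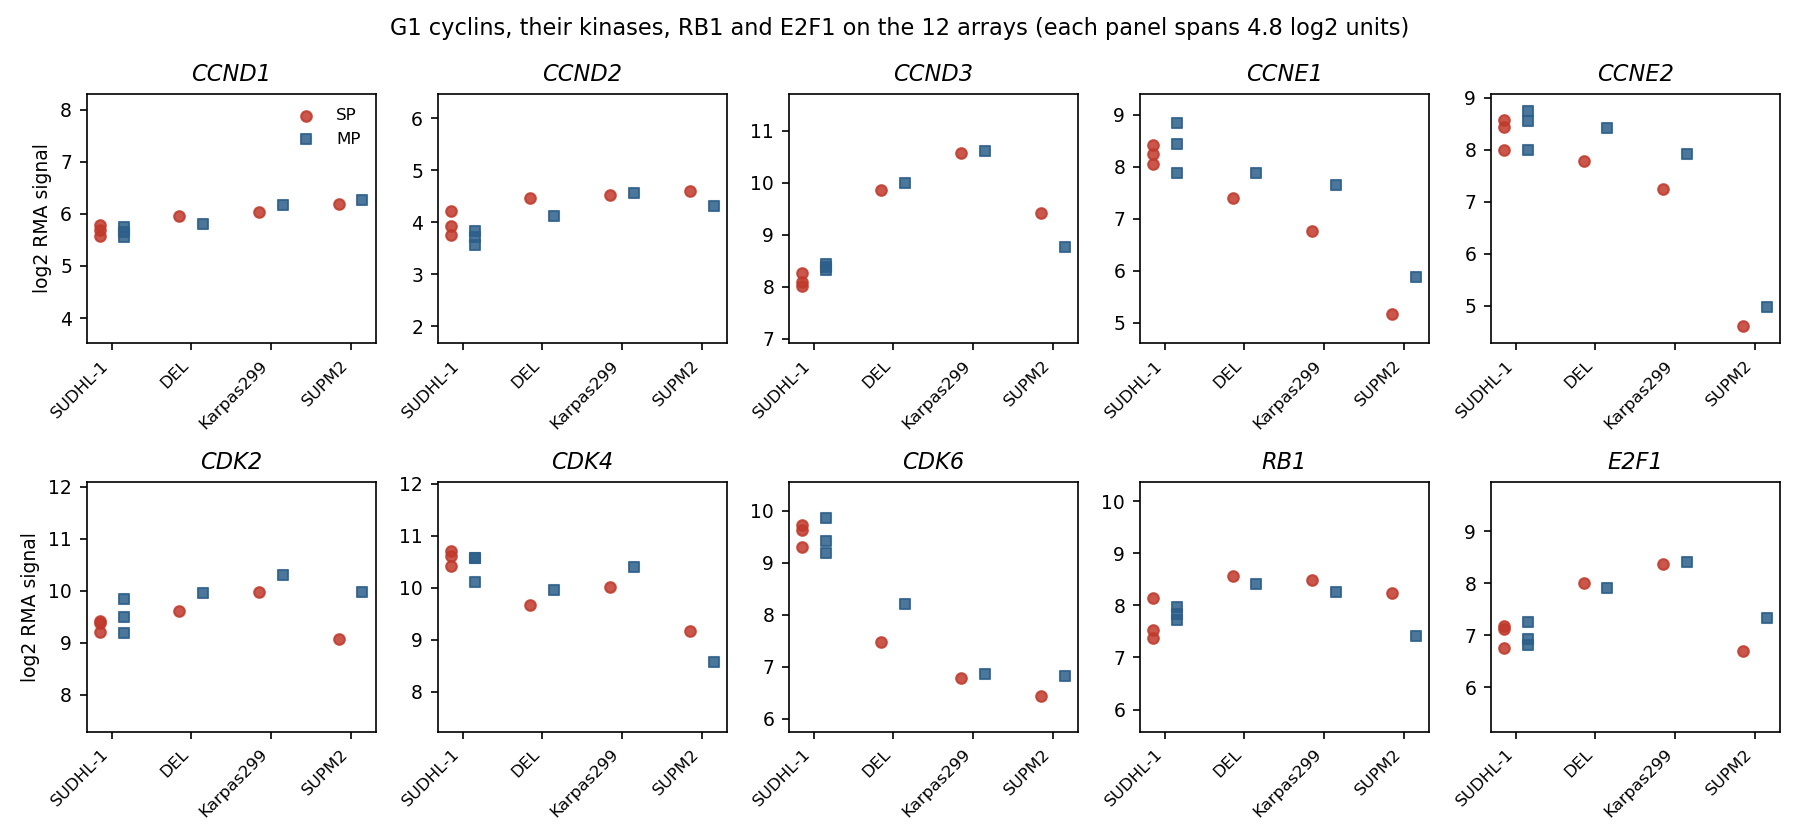
Log2 RMA signal of each of the 10 genes (vertical axis, 4.8 log2 units in each panel) by cell line, with SP arrays as circles and MP arrays as squares. CCND3 is highest in Karpas299, CDK6 in SUDHL-1, and CCNE1 and CCNE2 are lowest in SUPM2, where they stand at 4.61 to 5.88.

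The partner kinases of the D cyclins were ordered differently over the lines. CDK6 stood at 9.63, 9.72 and 9.31 on the SP and 9.43, 9.18 and 9.87 on the MP arrays of SUDHL-1. In the other lines it stood at 7.48 (SP) and 8.21 (MP) in DEL, 6.78 and 6.87 in Karpas299, and 6.44 and 6.82 in SUPM2. Every SUDHL-1 array lay above every other array, as for 7.51% of all genes, and the line means spanned 2.89, a 7.42-fold range. SUDHL-1 exceeded the mean of the other lines by 2.42 (SE 0.16, limma adjusted p = 5.45e-07), and by 2.46 after quantile normalization and 2.88 with arrays centred on their medians. CDK6 was higher in DEL than in SUPM2 by 1.21 (SE 0.27, limma adjusted p = 0.0195), and its difference between Karpas299 and SUPM2 was 0.19 (95% confidence interval -0.41 to 0.79, adjusted p = 0.766). DEL exceeded Karpas299 by 1.02 (SE 0.27), just short of the threshold (limma adjusted p = 0.0580, and 0.0389 after quantile normalization).

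CDK4, the other kinase of the D cyclins, varied less and was lowest in SUPM2. It stood at 9.17 on the SP and 8.57 on the MP array of SUPM2, 9.67 and 9.96 in DEL, 10.01 and 10.40 in Karpas299, and 10.11 to 10.70 on the SUDHL-1 arrays. Both SUPM2 arrays lay below all others, as for 6.29% of all genes, whereas SUDHL-1 and Karpas299 overlapped. Karpas299 exceeded SUPM2 by 1.33 (SE 0.26, limma adjusted p = 0.00724) and DEL exceeded it by 0.94 (SE 0.26, adjusted p = 0.0468). The first call was lost on the arrays of DEL, Karpas299 and SUPM2 alone (adjusted p = 0.0629), where 4 members in place of 5 passed in that contrast. The second was lost in 8 of 14 alternatives (adjusted p up to 0.160). SUDHL-1 exceeded the mean of the other lines by 0.87 (SE 0.15, limma adjusted p = 0.000441). On the arrays of SUDHL-1, CDK6 and CDK4 stood above their level in the mean of the other lines while CCND3 stood below it. The 3 directions held after quantile normalization and after median centring. Both rescale whole arrays, so they cannot separate the line from any difference in how its arrays were processed.

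**Figure D2:**
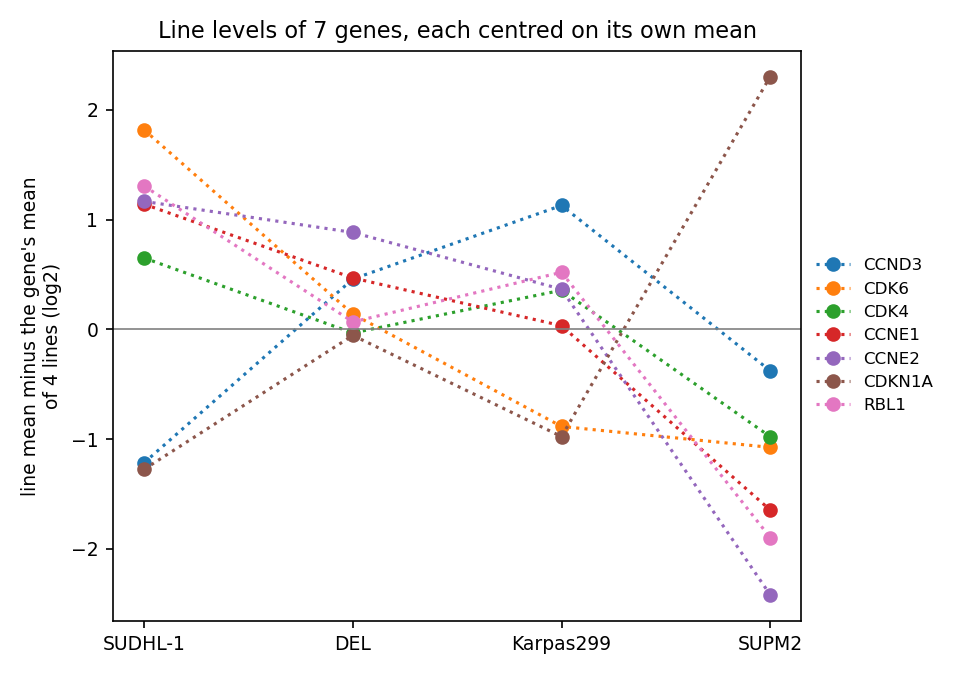
Mean log2 signal per cell line of 7 genes, each with its own mean over the 4 lines subtracted (vertical axis, log2). The genes were picked for display after their values were seen, and dotted lines only join points of 1 gene. CCND3 is lowest and CDK6 highest in SUDHL-1, and CDKN1A is highest in SUPM2 where CCNE1, CCNE2, CDK4 and RBL1 are lowest.

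Of the 10 genes CCNE2 had the widest range of line means, 3.58 on the log2 scale, followed by CDK6 and by CCNE1 with 2.79. CCNE2 stood at 4.61 on the SP and 4.98 on the MP array of SUPM2. It stood at 7.24 and 7.92 in Karpas299, 7.78 and 8.42 in DEL, and 7.99 to 8.75 on the SUDHL-1 arrays. CCNE1 stood at 5.18 and 5.88 in SUPM2, 6.76 and 7.65 in Karpas299, 7.41 and 7.88 in DEL, and 7.89 to 8.84 in SUDHL-1. For both genes the SUPM2 arrays lay below all 10 others, which was so for 6.29% of all genes, and their line means were ordered SUDHL-1, DEL, Karpas299, SUPM2.

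DEL exceeded SUPM2 by 3.30 (SE 0.29) for CCNE2 and by 2.11 (SE 0.30) for CCNE1, with limma adjusted p = 5.54e-05 and 0.00166. Karpas299 exceeded SUPM2 by 2.78 and 1.68 (limma adjusted p = 0.000170 and 0.00518). All 4 of these calls held in each of 14 alternatives. Some of these could not move the differences, as each gene had 1 probe set and leaving out SUDHL-1 arrays changes only the spread. DEL and Karpas299 were not separated for either gene (0.52 for CCNE2, 95% confidence interval -0.11 to 1.15, and 0.43 for CCNE1, -0.24 to 1.11). SUDHL-1 exceeded the mean of the other lines by 1.56 for CCNE2 and 1.52 for CCNE1, and by 1.69 and 1.68 after quantile normalization. For CCNE1 the gap from DEL was narrow, since the lowest SUDHL-1 array (7.89) lay just above the MP array of DEL (7.88). For CCNE2 SUDHL-1 and DEL overlapped, the lowest SUDHL-1 array (7.99) lying below the MP array of DEL (8.42). The low SUPM2 arrays are part of the mean of the other lines.

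CDK2, the kinase of the E cyclins, did not share this order. It stood at 9.08 to 10.30 on the 12 arrays with line means spanning 0.72, and no contrast among DEL, Karpas299 and SUPM2 was called (limma adjusted p = 0.161 to 0.596). RB1, whose protein the kinases inactivate, stood at 7.38 to 8.57 with line means spanning 0.73, and again no contrast among these 3 lines was called (adjusted p = 0.222 to 0.940). For CDK2 the difference of SUDHL-1 from the other lines was -0.40 as deposited, -0.63 after quantile normalization (limma adjusted p = 0.00450) and 0.06 after median centring (adjusted p = 0.743). For RB1 it was -0.47, -0.43 (limma adjusted p = 0.0359) and -0.0061 (adjusted p = 0.979), so both calls depend on the scaling.

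E2F1 was brightest in Karpas299. It stood at 8.37 on the SP and 8.40 on the MP array of Karpas299, 8.01 and 7.91 in DEL, 6.69 and 7.33 in SUPM2, and 6.75 to 7.25 on the SUDHL-1 arrays. Both Karpas299 arrays lay above all others, as they did for CCND3 and for 6.66% of all genes, and SUPM2 and SUDHL-1 overlapped. Karpas299 exceeded SUPM2 by 1.37 (SE 0.24, limma adjusted p = 0.00385) and DEL exceeded it by 0.95 (SE 0.24, adjusted p = 0.0322, rising to 0.104 on the arrays of these 3 lines alone). DEL stood -0.42 from Karpas299 (95% confidence interval -0.94 to 0.10, limma adjusted p = 0.454). SUDHL-1 differed from the mean of the other lines by -0.78 as deposited, by -0.61 after quantile normalization (limma adjusted p = 0.00406) and by -0.32 with arrays centred on their medians (adjusted p = 0.0878).

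Counted together, 6 of 10 genes were higher in DEL than in SUPM2 at an adjusted p under 0.05 and 0 were lower. They were CCND3, CCNE1, CCNE2, CDK4, CDK6 and E2F1. Over all genes 8.34% were called, 5.6% higher and 2.74% lower. Over the alternatives this count ran from 3 to 6, and only CCNE1, CCNE2 and CDK6 kept the call in every one. Between Karpas299 and SUPM2, 5 of 10 were higher (CCND3, CCNE1, CCNE2, CDK4 and E2F1) and 0 lower. There 10.7% of all genes were called, 6.58% higher and 4.12% lower. Between DEL and Karpas299, 0 of 10 were called, where 5.2% of all genes were, 2.95% higher and 2.25% lower. SUDHL-1 against the mean of the other lines called 10 of 10 genes (4 higher and 6 lower), but it also called 65.6% of all genes, 16.4% higher and 49.2% lower. The share of calls higher in SUDHL-1 was 24.96% as deposited, 51.0% after quantile normalization and 63.9% after median centring. After quantile normalization 4 members were called higher and 4 lower, and with centred arrays 4 higher (CCNE1, CCNE2, CDK4 and CDK6) and 1 lower (CCND3). In this model the SP and MP arrays stand for a line. The spread comes from the SUDHL-1 replicates and from SP and MP differences that vary between lines. DEL, Karpas299 and SUPM2 had no repeat array of a population, so their contrasts lack replication of the line.

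**Figure D3:**
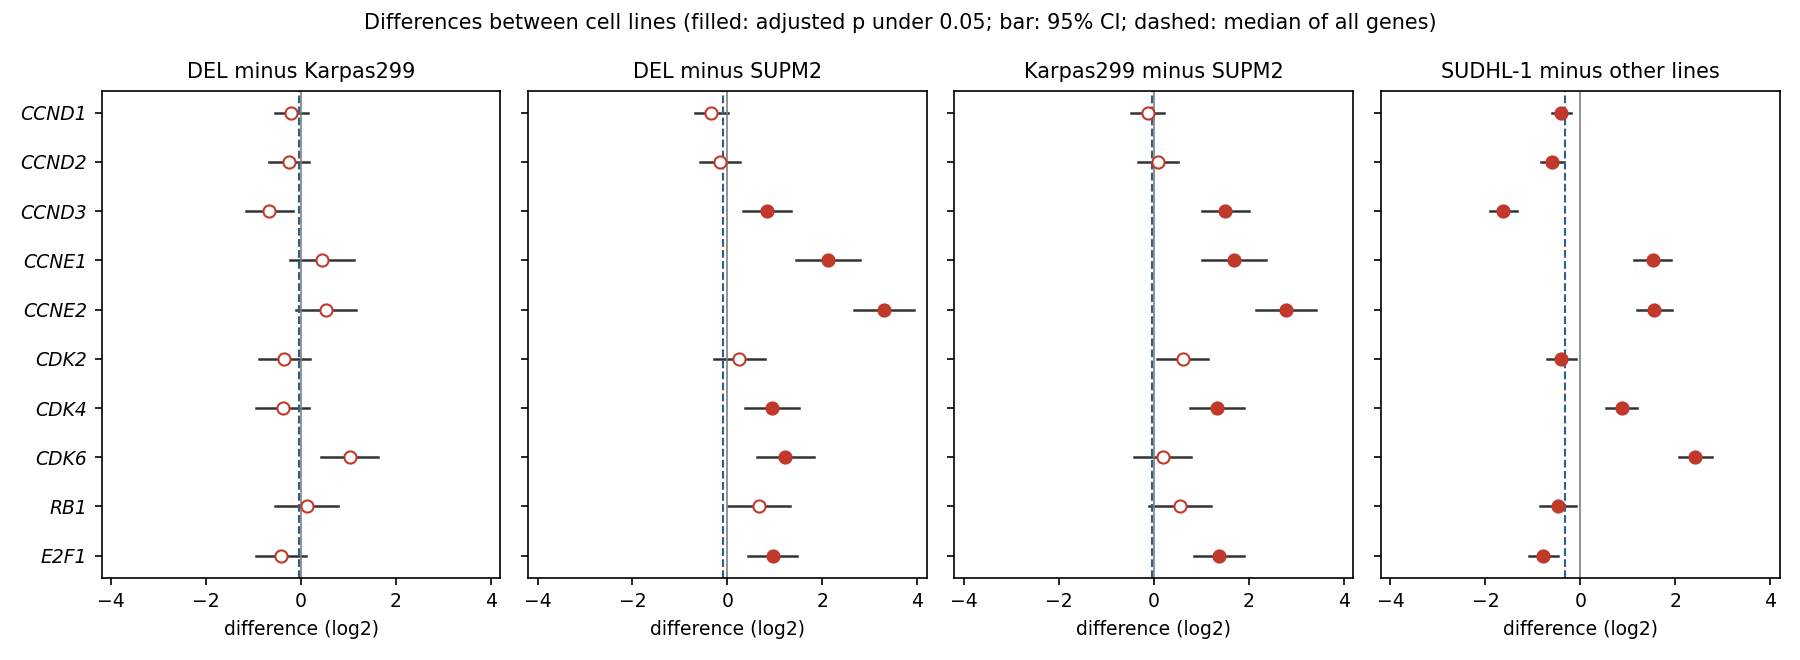
Differences between cell lines for the 10 genes (horizontal axis, log2) from limma on 12 arrays, with 95% confidence intervals as bars, filled points for an adjusted p under 0.05 and a dashed line at the median of all genes. The E cyclins lie farthest from 0 in both contrasts with SUPM2, at 1.68 to 3.30, and the dashed line of the SUDHL-1 contrast stands at -0.33.

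Most E2F targets were lower in SUPM2 than in DEL and Karpas299, whereas fewer genes of the other lists were called. Of 28 measured E2F target genes of DNA synthesis, 28 stood higher in DEL than in SUPM2 and 21 passed the test. Over all genes 40.7% stood higher and 5.6% passed as higher. The median was 1.93 against -0.09 over all genes. In Karpas299, 28 stood higher than in SUPM2 and 25 passed, where 44.1% of all genes stood higher and 6.58% passed as higher. The median was 2.47 against -0.05. MCM3, MCM4 and MCM5, subunits of the replicative helicase, were higher in Karpas299 than in SUPM2 by 2.66, 3.36 and 3.50, and GINS1, which joins that helicase, was higher in DEL by 3.78 (limma adjusted p = 2.83e-05, 4.38e-05, 4.42e-05 and 0.000211). Of 11 other pocket proteins, E2F and DP factors, 4 passed as higher in DEL and 5 as higher in Karpas299 than in SUPM2, and 0 as lower. Over all genes 5.6% and 6.58% passed as higher, and 2.74% and 4.12% as lower. RBL1, the pocket protein p107, stood at 5.59 and 5.75 in SUPM2 and was higher in Karpas299 by 2.42 (limma adjusted p = 0.00172). E2F6 and E2F8, repressors of E2F targets, and TFDP1, the partner of E2F factors, were higher in Karpas299 by 2.05, 2.80 and 1.49 (adjusted p = 0.000183, 0.00115 and 0.00215).

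Among 7 measured CDK inhibitors, CDKN1A, which encodes p21 and is a target of p53, went the opposite way. It stood at 10.23 on the SP and 10.45 on the MP array of SUPM2, 7.79 and 8.17 in DEL, 6.95 and 7.17 in Karpas299, and at most 6.999 in SUDHL-1. Both SUPM2 arrays lay above all others, as for 12.5% of all genes. SUPM2 exceeded Karpas299 by 3.28 and DEL by 2.36 (differences of -3.28 and -2.36 from SUPM2, SE 0.20 each, limma adjusted p = 4.17e-06 and 4.24e-05), and DEL exceeded Karpas299 by 0.92 (adjusted p = 0.0220, and up to 0.0763 over the alternatives). No other CDK inhibitor passed in the contrasts among these 3 lines.

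Of 15 genes of kinase activation and cyclin turnover, 2 passed as higher in DEL and 3 as higher in Karpas299 than in SUPM2. Over all genes 5.6% and 6.58% did. CDC25A, the phosphatase that activates CDK2, was higher in DEL and in Karpas299 than in SUPM2 by 1.88 and 1.80 (limma adjusted p = 0.0210 and 0.0212). PKMYT1 and WEE1, kinases that hold CDK1 inactive, were higher in Karpas299 than in SUPM2 by 3.23 and 1.52 (adjusted p = 9.41e-05 and 0.0395), the WEE1 call being lost in 5 of 14 alternatives (adjusted p up to 0.100). PKMYT1 was also the gene of this list that separated Karpas299 from DEL (difference of DEL from Karpas299 -1.40, adjusted p = 0.0250).

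The comparison of SP with MP cells asks whether dye-excluding cells differ in the machinery of the G1/S transition. Within SUDHL-1, where it can be tested on replicates, limma called 0 of 10 genes and 0% of all genes, and 0 of 10 at an unadjusted p under 0.05, where 3.13% of all genes passed. CCNE1 stood at 8.05, 8.25 and 8.42 on the SP and 8.84, 8.44 and 7.89 on the MP arrays. CCNE2 stood at 8.57, 8.43 and 8.004 on the SP and 8.75, 8.55 and 7.99 on the MP arrays. The populations overlapped for both, with differences of -0.15 (95% confidence interval -0.74 to 0.44) and -0.10 (-0.67 to 0.48).

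CCND3 was the sole member whose SUDHL-1 arrays did not overlap, all 3 SP arrays (8.01 to 8.27) lying below the MP arrays (8.31 to 8.43), as for 3.42% of all genes, and 0 of 10 members had SP arrays wholly above MP, as 3.74% of all genes did. SP arrays averaged 8.12 ± 0.13 and MP arrays 8.37 ± 0.06 (SD, n = 3 each). A two-sided permutation test, exact over all splits, gave p = 0.1, the lowest value possible for 3 arrays against 3. In limma the adjusted p was 1.00. In DEL and Karpas299 the SP array also lay below the MP array, by -0.14 and -0.04, but in SUPM2 it lay above by 0.64. The remaining differences in SUDHL-1 ran from -0.17 for CDK2 to 0.27 for CCND2.

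Over the 4 lines, with 1 SP minus MP difference per line, both E cyclins and CDK2 were lower in SP cells of every line. For CCNE1 the SUDHL-1 difference was -0.15, against -0.47 (DEL), -0.89 (Karpas299) and -0.70 (SUPM2). Those of CCNE2 were -0.10, -0.64, -0.67 and -0.37 in the same order. CDK2, which these cyclins activate, differed by -0.17, -0.36, -0.33 and -0.90. That is 3 of 10 genes below 0 in all 4 lines, where 5.65% of all genes were, and 0 of 10 above 0 in all 4, where 8.09% were. The SUDHL-1 side of this count is weak: without MP array 1, CCNE1 stood at 0.08 and CCNE2 at 0.06 in that line, and without SP array 3 CCNE2 stood at 0.07, whereas CDK2 stayed below 0 at -0.0073 and -0.21.

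Averaged over lines, CDK2 was lower in SP cells by a mean of -0.44 ± 0.32 (SD, n = 4 lines), a 1.36-fold difference, beside -0.55 for CCNE1 and -0.45 for CCNE2. For each of the 3 the exact two-sided sign-flip permutation p was 0.125, the smallest that 4 lines allow. Limma on the 4 differences gave unadjusted p = 0.00945, 0.0162 and 0.0239 for CCNE1, CCNE2 and CDK2 and an adjusted p of 0.918 for each, where 4.91% of all genes had an unadjusted p under 0.05 and 0% passed after adjustment. The robust trended fit and the fit of all 12 arrays also called 0 genes. With any line or any SUDHL-1 array left out, the averages ran from -0.69 to -0.44 for CCNE1, -0.56 to -0.37 for CCNE2 and -0.53 to -0.29 for CDK2, the last value being that without SUPM2. The fit of all 12 arrays, in which SUDHL-1 weighs more, gave -0.42, -0.33 and -0.35.

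**Figure D4:**
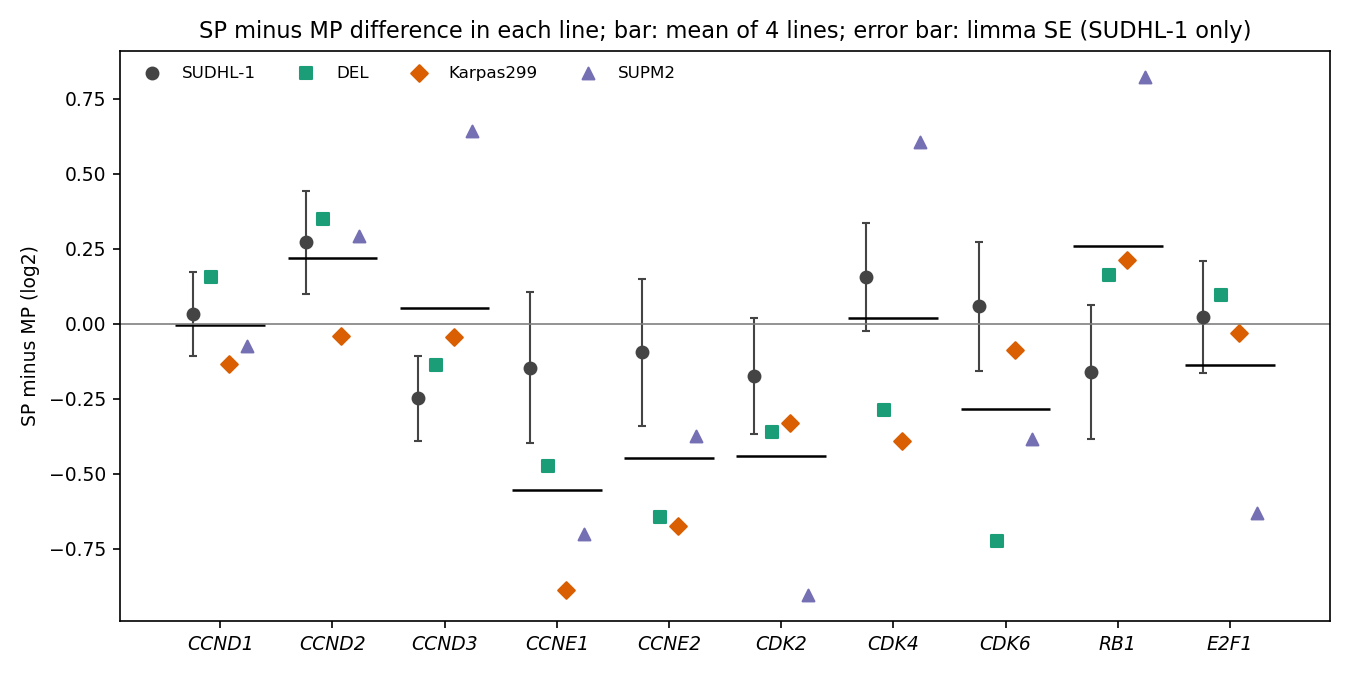
SP minus MP difference of each gene (vertical axis, log2) in the 4 lines, with the mean of the lines as a bar and the limma standard error on the replicated SUDHL-1 difference. CCNE1, CCNE2 and CDK2 lie below 0 in all 4 lines, and SUPM2 (triangles) shows the widest spread, from -0.90 for CDK2 to 0.82 for RB1.

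For the other members the lines did not share a side. In the same order of lines, CDK6 differed by 0.06, -0.72, -0.09 and -0.39, and CDK4 by 0.16, -0.29, -0.39 and 0.60. RB1 differed by -0.16, 0.16, 0.21 and 0.82. E2F1 differed by 0.02, 0.10, -0.03 and -0.63, so that its SP and MP arrays stood apart only in SUPM2. CCND2 differed by 0.27, 0.35, -0.04 and 0.29 at its dim signal, and CCND1 by -0.13 to 0.16.

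In the lines with 1 array per population, differences past 0.5 on the log2 scale are descriptions of those arrays. In DEL, CCNE2 and CDK6 were lower in SP cells by more than this, 2 of 10 genes, where 8.24% of all genes were, and 0 were higher, against 6.53% of all genes. In Karpas299, CCNE1 and CCNE2 were, 2 of 10, where 7.62% of all genes were, and 0 were higher, against 9.2% of all genes. In SUPM2, CCNE1, CDK2 and E2F1 were lower and CCND3, CDK4 and RB1 higher by more than 0.5, where 11.8% of all genes were lower and 14.5% higher. The 2 SUPM2 arrays also had the lowest correlation of any line's SP and MP arrays (0.963 against 0.979 and 0.982 for the other pairs). In SUDHL-1, 0 of 10 averages passed 0.5, where 3.14% of all genes were lower and 2.57% higher. The interaction test, which asks whether the difference in SUDHL-1 departs from the mean of the other lines, called 0 of 10 members and 0% of all genes. It had an unadjusted p under 0.05 for 0 of 10 members and 3.59% of all genes, and the largest values among the members were -0.56 for RB1 (SE 0.31) and 0.54 for CCNE1 (SE 0.33), both with a limma adjusted p of 1.00.

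The E2F targets of DNA synthesis stood mostly on the same side as the E cyclins in 2 lines. In DEL 25 of 28 had the lower signal in SP cells (median -0.43, against 0.02 over all genes) and in Karpas299 24 of 28 (median -0.42, against -0.0059). In SUDHL-1 12 of 28 were lower (median 0.03) and in SUPM2 11 of 28 (median 0.29, against 0.07), although both E cyclins were lower there. Over the 4 lines 5 of 28 were lower in every line and 0 higher, where 5.65% of all genes were lower and 8.09% higher. For these 28 limma called 0 over the 4 lines, where it called 0% of all genes. POLE, a DNA polymerase subunit, and MCM3 had the smallest p on the lower side, at -0.36 and -0.27, and GINS3 and GINS1 on the higher side, at 0.19 and 0.26. Genes of later phases stood mostly on the other side. Of 7 genes of S, G2 and M phase, SUDHL-1 had 7 with the higher signal in SP cells, DEL 5, Karpas299 6 and SUPM2 7. Over all genes 49.9%, 52.7%, 49.2% and 57.8% were higher, in the same order. Medians of the 7 were 0.60, 0.26, 0.45 and 0.99, against -0.00024, 0.02, -0.0059 and 0.07 over all genes. Limma called 0 of 7 over the lines, and 0% of all genes. Among the 7, CDK1 and PLK1 averaged 1.01 and 0.89.

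**Figure D5:**
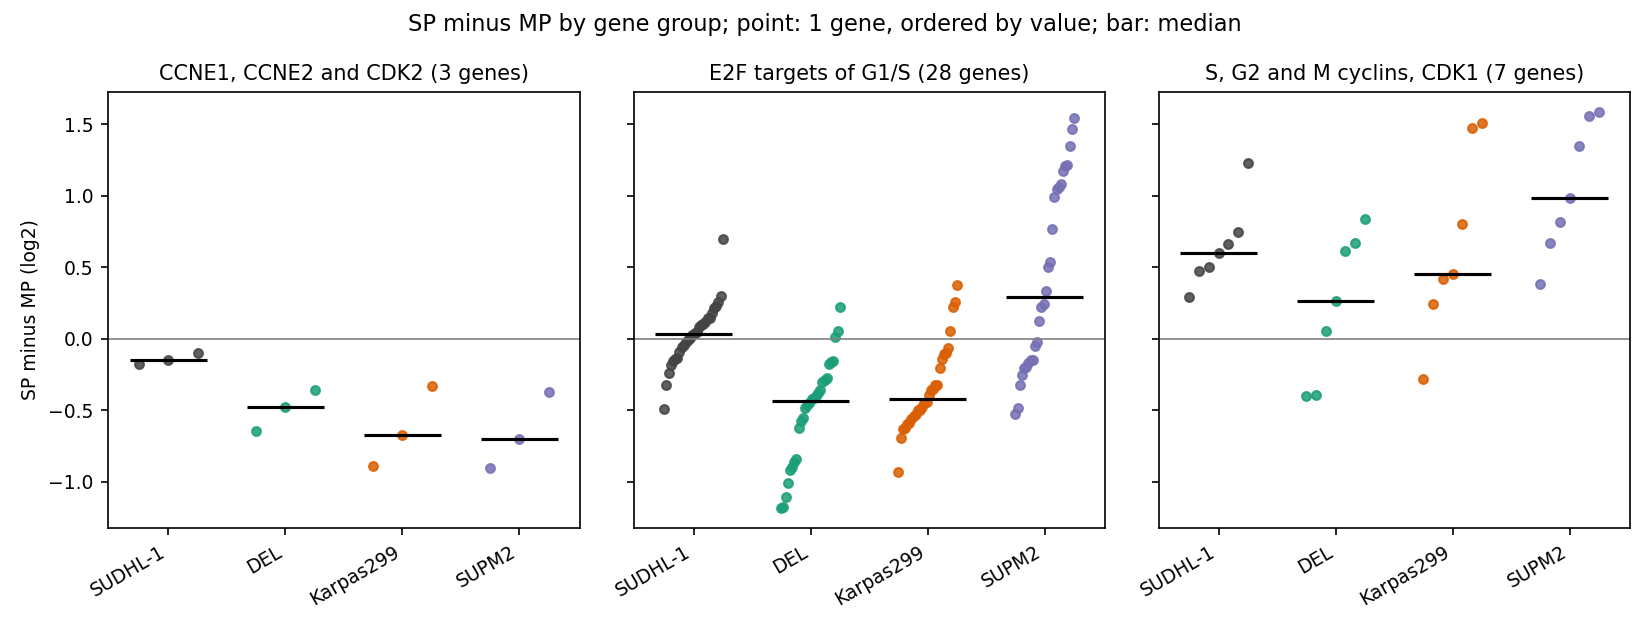
SP minus MP difference (vertical axis, log2) of single genes in each line, for CCNE1, CCNE2 and CDK2, for 28 E2F targets of the G1/S transition and for 7 genes of S, G2 and M phase, with medians as bars. The first group lies below 0 in all lines, the E2F targets have medians of -0.43 and -0.42 in DEL and Karpas299 only, and the third group has medians above 0 in all lines.

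Upstream regulators of the G1 kinases were not called between SP and MP cells either, where limma's test over the 4 lines called 0% of all genes. The counts were 0 of 7 CDK inhibitors, 0 of 11 pocket proteins, E2F and DP factors and 0 of 15 genes of kinase activation and cyclin turnover. SKP2, which marks the inhibitor p27 for destruction, averaged -0.68 (SE 0.15, unadjusted p = 0.00330, limma adjusted p = 0.918). CDKN1B, which encodes p27, averaged 0.38 (SE 0.14) but stood at -0.02 in Karpas299, so its lines did not share a side. CDC25A averaged -0.72 (SE 0.26), from -1.54 in DEL and -1.05 in Karpas299 to -0.24 in SUDHL-1 and -0.05 in SUPM2. CKS1B, a cofactor of SKP2, averaged 0.52 (SE 0.29), with 1.60 in SUPM2 beside 0.51, -0.14 and 0.10 in SUDHL-1, DEL and Karpas299. SKP2 was lower on the SP array or SP mean of every line, by -0.32 (SUDHL-1), -0.59 (DEL), -0.74 (Karpas299) and -1.05 (SUPM2). E2F5, a factor that acts with the pocket protein p130, averaged 0.78 (SE 0.26) and was at -0.07 in SUDHL-1.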

How the data were processed

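RNA of 12 sorted samples was amplified and hybridised to Affymetrix whole-transcript gene arrays, per the labels' protocols. The deposited values are log2 signals per probe set made by the authors with RMA, which the submitters' processing notes name without giving its version. The method subtracts background, equalises signal distributions and combines probes. The sources used here do not say if the 12 arrays were normalized in 1 run. Of 33297 probe sets, 19460 had 1 symbol in the platform annotation, 1754 several and 12083 none, and several named no gene. Of the 19460, 19429 matched RefSeq (GRCh38.p14) by Entrez identifier. For the 769 genes with more than 1 probe set, that of highest mean was used.

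limma 3.58.1 (R 4.3.3, lmFit and eBayes) was run on all 18417 genes, with two-sided p-values adjusted by the Benjamini-Hochberg method over all of them and a threshold of 0.05. Fits were tested on simulated data. SP minus MP was fitted on the 6 SUDHL-1 arrays, on 1 difference per line (paired by the cell line label), and as an interaction with SUDHL-1 on 12 arrays with line as a block. Line contrasts used line and population on 12 arrays. Replicate numbers of SUDHL-1 did not pair its arrays (correlation of deviations -0.13 to -0.0037 for equal numbers), so no block was used.

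Alternatives left out the dimmest 25% of genes, normalized again, centred arrays on their medians, averaged probe sets, used a robust trended variance, a replicate block or other sets of arrays, and left out arrays and lines. Leaving out both arrays numbered 3 was added after the data were examined. Members, lists and tests were chosen with earlier results of these data known. In addition to the 10 members, the rule for naming took, from each list, up to 4 genes that passed in a contrast and otherwise up to 2 of smallest p in each direction over the lines, or 2 with the widest range of line means. No set test was run.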

Additional observations from a re-analysis of the deposited data

How the results depend on the processing

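Of 1090 values of single members under the alternatives, 1021 were counted as unchanged, 36 lost a call, 2 gained one and 31 changed sign. SP minus MP in DEL, Karpas299 and SUPM2 has no test. Its values counted as unchanged if they moved by less than the SD within the SUDHL-1 populations. There a sign change was counted only for differences past 0.5, so CCND3 in Karpas299, which moved from -0.043 to 0.012, counted as unchanged. Averaging probe sets could not move a member, as each had 1. Counts of members called for SP against MP stayed at 0 in SUDHL-1, over the 4 lines and in the interaction under every alternative, the replicate block in SUDHL-1 included, which called 0 members. Between lines, the counts that changed by over 1.5 times were DEL against SUPM2 with the 6 arrays of DEL, Karpas299 and SUPM2 alone (3 in place of 6, with fewer arrays in the fit), SUDHL-1 against the others with centred arrays (5 in place of 10), and DEL against Karpas299 after quantile normalization (1 in place of 0, CDK6) and with 1 SUDHL-1 array left out (0 to 1). On those 6 arrays the counts over all genes were 444 for DEL against Karpas299, 869 for DEL against SUPM2 and 1255 for Karpas299 against SUPM2. On all arrays they were 958, 1536 and 1971. The members called for DEL against SUPM2 also fell to 4, which is not over 1.5 times. That was so with the robust trended variance and with SUDHL-1 replicates averaged first.

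Sign changes touched values near 0 or the scale of SUDHL-1. In SUDHL-1 against the others CCND1 stood at 0.034 after quantile normalization and 0.055 with centred arrays, and CDK2 at 0.063 with centred arrays. For SP minus MP over the lines, CCND1 stood at 0.037 without Karpas299, 0.018 without SUPM2 and 0.0067 with all 12 arrays, CCND3 at -0.14 without SUPM2 and -0.047 with all 12 arrays, CDK4 at -0.026 without SUDHL-1 and -0.17 without SUPM2, and E2F1 at 0.029 without SUPM2. Without both arrays numbered 3, CCND1 stood at -0.018 in SUDHL-1 and -0.00093 in the interaction, and CCND2 at -0.049 in the interaction. With 1 SUDHL-1 array left out, the SUDHL-1 differences ran from -0.070 to 0.15 for E2F1, -0.10 to 0.25 for CDK6, -0.019 to 0.086 for CCND1, -0.32 to 0.069 for CCNE2 and -0.40 to 0.080 for CCNE1. The line averages ran from -0.018 to 0.0083 for CCND1 and -0.018 to 0.039 for CDK4, and the interaction from -0.0015 to 0.10 for CCND1 and -0.055 to 0.18 for CCND2. The cause was not tested. With dim genes left out, CCND2 had no value.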

Other observations

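Genes whose profile over the 12 arrays lay nearest to a member were found by the root mean square difference of profiles, each centred on its own mean. Most of each profile is the difference between 4 lines, so nearness describes these lines alone. CCND3, whose own deviation was 0.93, lay nearest to POLD1 (0.21), GLIS2 (0.22) and THEMIS (0.24). CCNE1 (own deviation 1.05) lay nearest to CTPS1 (0.31), ZWILCH (0.33) and TSR1 (0.36), and CCNE2 (1.32) to NKG7 (0.34), CHAF1B (0.35) and MCM8 (0.36). CDK6 (1.29) lay nearest to ABCF1 (0.28), FAM171B (0.29) and SLK (0.33), and CDK4 (0.62) to BZW1 (0.14), SNRPB2 (0.16) and ACTL6A (0.16). E2F1 (0.59) lay nearest to AAMP (0.16), U2AF2 (0.21) and GLE1 (0.21).

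Of 10 measured cyclins outside the G1/S engine, 0 passed as higher in Karpas299 than in SUPM2 and 3 as lower, where 6.58% of all genes were higher and 4.12% lower. In DEL against SUPM2, 1 passed as higher and 2 as lower, where 5.6% and 2.74% of all genes did. The higher gene was CCNK, a partner of transcriptional kinases, at 0.94 (limma adjusted p = 0.0482, lost in 9 of 14 alternatives, up to 0.123). CCNG1, a target of p53, stood at 10.56 on the SP and 10.15 on the MP array of SUPM2, 9.07 and 9.08 in DEL, and 9.01 and 8.71 in Karpas299. Both SUPM2 arrays lay above the arrays of all other lines, as for 12.5% of all genes. The differences of Karpas299 and DEL from SUPM2 were -1.498 and -1.28 (limma adjusted p = 0.000285 and 0.000899). CCNL1, a cyclin of RNA splicing, differed by -1.26 between DEL and SUPM2 (adjusted p = 0.0121). Between SP and MP cells over the 4 lines limma called 0 of 10 and 0% of all genes, with CCNT2 at 0.32 and CCNY at -0.22.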
